A study of Homo sapiens with 4 samples.

Results

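HAND1, HAND2, FOXF1, FOXC1, FOXC2, ISL1, NKX2-5 and IRX3 are transcription factors of the lateral plate, the cardiac field and the neighboring mesoderm. They were taken by gene symbol, with earlier results of these data known, and all 8 were found among the 17894 genes listed in each library. RNA-SEQ was performed on H1 cells, a human embryonic stem cell line, after 2 days of hematopoietic differentiation on mAGM-S3, a mouse stromal line. In every group, cells were sorted from the co-culture by an antigen of human cells before RNA was taken. The wild type groups were control cells, with 1 library, and cells cultured with R-spondin2 (20 ng/mL, the first 1 day), also with 1 library. The 2 remaining libraries came from LGR4-/- H1 cells, and LGR4 encodes a receptor for R-spondins. They are called clone 1 and clone 2 here, after the numbers in their labels, which do not say whether they are separate clones. Their own labels name genotype and day, with no R-spondin2, and how the deletion was made is not given in the sources used here. Levels are FPKM as deposited, that is, fragments scaled for transcript length and for sequencing depth, so they can be compared between genes.

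During gastrulation, cells leaving the primitive streak form mesoderm, and the lateral plate arises from the part exposed to much BMP. Its splanchnic layer and the heart fields within it give rise to the heart, smooth muscle and vessels, and blood and endothelium also come from lateral and extraembryonic mesoderm. HAND1 and HAND2 are basic helix-loop-helix factors needed for heart formation, and HAND1 is also expressed in extraembryonic mesoderm. FOXF1 is a forkhead factor of splanchnic and extraembryonic mesoderm. FOXC1 and FOXC2 are closely related forkhead factors of paraxial mesoderm, endocardium and vessels. NKX2-5 is a homeobox factor of cardiac progenitors, ISL1 is a LIM homeobox factor of the second heart field, and IRX3 is an Iroquois homeobox factor.

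The promoter of a gene is where signals such as WNT and BMP can meet its transcription. RefSeq promoters on GRCh38.p14 were matched for 4 of the 8 factors, and the 250 bases before each of these 4 starts are shown. The 4 include the factors of highest and of lowest level. FOXF1, FOXC2, NKX2-5 and IRX3 were not matched. For HAND1, FOXC1 and ISL1 the RefSeq start differs from that of the gene positions given further below. The HAND1 and ISL1 windows reach into the genes as placed there, and the FOXC1 window ends before its gene. The HAND1 promoter lies at chr5:154478228-154478477 on the minus strand, that of HAND2 at chr4:173530230-173530479 on the minus strand, that of FOXC1 at chr6:1609665-1609914 on the plus strand and that of ISL1 at chr5:51383198-51383447 on the plus strand. Each is written 5′ to 3′ on the strand of its gene. Capitals mark matches, on either strand, to the TCF/LEF word CTTTGAT, the GATA word GATAA and the GC-rich SMAD word GGCGCC.
HAND1: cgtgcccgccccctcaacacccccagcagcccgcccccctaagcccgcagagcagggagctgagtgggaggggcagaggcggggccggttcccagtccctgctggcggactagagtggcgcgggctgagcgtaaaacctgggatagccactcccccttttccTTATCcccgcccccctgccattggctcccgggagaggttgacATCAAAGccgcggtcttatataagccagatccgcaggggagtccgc
HAND2: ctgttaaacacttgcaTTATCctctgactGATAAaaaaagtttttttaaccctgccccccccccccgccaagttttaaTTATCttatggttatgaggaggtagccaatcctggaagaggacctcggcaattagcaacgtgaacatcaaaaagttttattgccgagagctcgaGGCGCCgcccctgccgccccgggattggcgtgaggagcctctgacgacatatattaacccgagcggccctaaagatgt
FOXC1: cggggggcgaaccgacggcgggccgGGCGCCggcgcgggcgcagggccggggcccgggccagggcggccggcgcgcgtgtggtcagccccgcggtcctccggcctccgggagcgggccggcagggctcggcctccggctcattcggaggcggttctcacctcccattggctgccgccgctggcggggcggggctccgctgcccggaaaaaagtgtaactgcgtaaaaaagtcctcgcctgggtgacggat
ISL1: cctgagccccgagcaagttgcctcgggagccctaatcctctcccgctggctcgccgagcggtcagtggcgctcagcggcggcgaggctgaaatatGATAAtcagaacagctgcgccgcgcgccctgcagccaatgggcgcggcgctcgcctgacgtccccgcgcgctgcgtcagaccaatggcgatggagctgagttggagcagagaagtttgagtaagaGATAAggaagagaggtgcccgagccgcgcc

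Positions count back from the RefSeq start, with -1 as the base before it. HAND1 was the only one of these 4 promoters with the TCF/LEF word, at -46, and 2.26% of 35116 RefSeq promoter windows of the same length held it. GATAA lay at -88 in HAND1, at -234, -221 and -172 in HAND2 and at -155 and -30 in ISL1, and 20.4% of all windows held it. GGCGCC lay at -78 in HAND2 and at -225 in FOXC1, and 16.4% of all windows held it. The SMAD word CAGAC occurred only in ISL1 among the 4, at -79, and in 38.0% of all windows. CCAAT, the box bound by the factor NF-Y, occurred in all 4 and in 32.0% of all windows. The E-box CANNTG, the word read by basic helix-loop-helix dimers, occurred in HAND2 at -242 and in ISL1 at -144, and in 61.8% of all windows. Neither the forkhead word GTAAACA, in 2.98% of all windows, nor the TATA word TATAAA, in 10.7%, was found in the 4. Only exact words were counted, so variants such as the tatataag in the HAND1 promoter were not. The CAGAC match of ISL1 and the CCAAT beside it share a base, and no other matches overlapped. A match describes letters and not a bound site. GC content was 67.2% for HAND1, 49.6% for HAND2, 76.8% for FOXC1 and 65.2% for ISL1.

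LGR4 was read first, as the check of the genotype. Its level was 21.77 FPKM in the control and 24.26 with R-spondin2, against 7.4 in clone 1 and 13.95 in clone 2. LGR4 RNA was thus lower in both clones, at 34.0% and 64.1% of the control, and was not absent from either. The number of reads, which decides how finely low values are stepped, was estimated from those steps at 8920000 for the control, 8700000 for R-spondin2, 8910000 for clone 1 and 8810000 for clone 2. The reads given below are implied by FPKM, transcript length and this estimate, and their 95% intervals cover counting error only. In sorted bulk cells, fewer cells expressing a factor and less RNA of it per cell cannot be told apart.

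The factors spanned a wide range of levels in the control, and the order was much the same in the other libraries. HAND1 was the highest in every library, followed by IRX3 and FOXC1, and ISL1 was the lowest. Summed over the 8 factors, the level was 121.8 FPKM in the control, 162.78 with R-spondin2, 17.52 in clone 1 and 36.45 in clone 2. The sum was therefore 1.34 times the control with R-spondin2, 0.144 times in clone 1 and 0.299 times in clone 2. HAND1 alone made up 57.5% of the sum in the control, and without it the sums were 51.75, 62.93, 8.93 and 16.69 FPKM in the same order of libraries.

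HAND1 stood at 70.05 FPKM in the control, 99.85 with R-spondin2, 8.59 in clone 1 and 19.76 in clone 2. These values correspond to 1086, 1510, 133 and 303 reads, and no library's counting interval overlapped that of another. HAND2, its paralog, stood at 3.39, 3.96, 0.75 and 1.24 FPKM, from 84, 96, 19 and 30 reads. The intervals of HAND2 overlapped between control and R-spondin2 and between the clones, and both wild type libraries lay above both clones.

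Among the forkhead factors, FOXF1 stood at 3.96 FPKM in the control, 6.66 with R-spondin2, 0.60 in clone 1 and 1.23 in clone 2, from 124, 204, 19 and 38 reads. FOXC1 stood at 11.79, 13.05, 2.54 and 4.03 FPKM, from 403, 435, 87 and 136 reads. FOXC2 stood at 1.60, 1.67, 0.40 and 0.71 FPKM, from 35, 36, 9 and 16 reads. All 3 forkhead genes were higher in both wild type libraries than in either clone, but only FOXF1 differed between the wild type libraries by more than their counting intervals. For FOXC2 the interval of the control, 1.10 to 2.20 FPKM, overlapped that of clone 2, 0.419 to 1.19, while the interval of clone 1 ended at 0.774.

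Among the homeobox factors, IRX3 stood at 27.41 FPKM in the control, 33.32 with R-spondin2, 4.30 in clone 1 and 8.35 in clone 2, from 636, 754, 100 and 191 reads. IRX3 differed between any pair of libraries by more than the counting intervals of both. NKX2-5 stood at 3.56, 3.94, 0.34 and 1.09 FPKM. It is listed with 3 transcripts, so that its reads lay between 33, 35, 3 and 10 at the shortest length and 54, 59, 5 and 16 at the longest. ISL1 was listed at 0.04, 0.33, 0 and 0.04 FPKM, or 1, 7, 0 and 1 reads. In the control and both clones ISL1 lay under the level of 3 reads, which was 0.137 FPKM in the control, so that its expression was not detectable there at this depth. The order of HAND2, FOXF1 and NKX2-5 changed between libraries, and in the control their counting intervals overlapped.

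**Figure D1:**
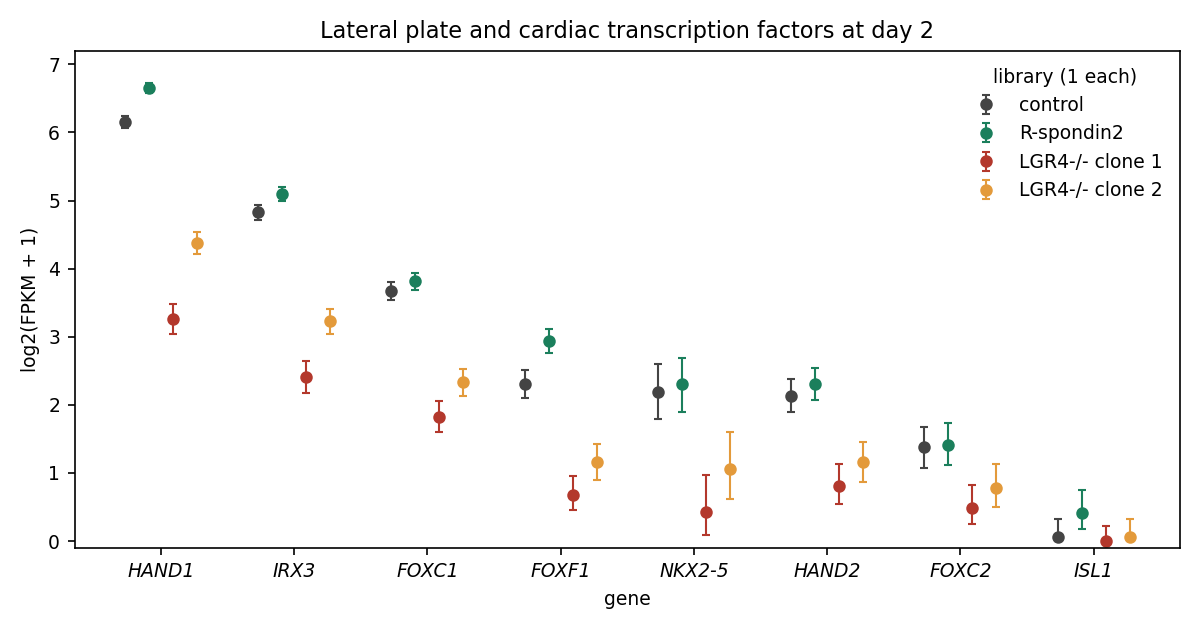
Level of each of the 8 factors in the 4 libraries, as log2(FPKM + 1) on the vertical axis, with genes ordered by their control level. Each point is 1 library and each bar its 95% Poisson counting interval, and HAND1 runs from 8.59 FPKM in clone 1 to 99.85 FPKM with R-spondin2 while ISL1 stays near 0.

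Whether R-spondin2 given on the first day altered these factors was asked with 1 library on each side, so the differences have no replicate check and no p-value. Every factor was listed higher with R-spondin2, by little for most, and FOXF1 and HAND1 had the largest differences beyond counting error. FOXF1 was 1.68-fold and HAND1 1.43-fold of the control in FPKM, followed by IRX3 at 1.22-fold and HAND2 at 1.17-fold. FOXC1 and NKX2-5 were each at 1.11-fold and FOXC2 was at 1.04-fold. All 8 factors were above the control by some amount, where 47.8% of 12697 genes that averaged at least 1 FPKM were. HAND1, HAND2, FOXF1 and IRX3 are among the mesoderm genes the study displayed for this same pair of libraries, so their direction is not independent evidence.

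On the log2(FPKM + 1) scale, which understates differences of low genes, FOXF1 differed by 0.63, HAND1 by 0.51, IRX3 by 0.27, HAND2 by 0.18, FOXC1 by 0.14, NKX2-5 by 0.12 and FOXC2 by 0.04. On this scale 1 of the 8, FOXF1, was at least 1.5-fold higher, and so were 0.536% of all genes. No factor was 2-fold higher. The median difference over the 8 was 0.22, against -0.01 over all genes, whose central 95% ran from -0.48 to 0.39. FOXF1 was thus the 54th and HAND1 the 115th largest difference upward, whereas FOXC2 was the 4781st.

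Counting error separated the factors in the same way. The log2 ratio of reads was 0.75 for FOXF1 with an interval of 0.43 to 1.09, 0.51 for HAND1 with 0.40 to 0.63, and 0.28 for IRX3 with 0.13 to 0.44. The interval held 0 for HAND2, -0.21 to 0.67, for FOXC1, -0.05 to 0.35, for FOXC2, -0.64 to 0.79, and for NKX2-5, -0.61 to 0.85. Of the 6 factors with a single transcript that passed the filter, 3 had an interval above 0, as did 11.1% of 5175 such genes. ISL1, with 7 reads against 1, gave a fold of 7.18 (interval 0.922 to 323), and no difference was detectable.

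Whether LGR4-/- cells differed in these factors was asked with the 2 clones against the same control library, which the R-spondin2 comparison shares. Apart from ISL1, every factor was lower in both clones, and on the log2(FPKM + 1) scale HAND1 and IRX3 showed the widest gaps. In FPKM the control exceeded clone 1 by 8.15-fold for HAND1, 6.37-fold for IRX3, 6.60-fold for FOXF1, 4.64-fold for FOXC1, 4.52-fold for HAND2 and 4.0-fold for FOXC2. It exceeded clone 2 by 3.55-fold for HAND1, 3.28-fold for IRX3, 3.22-fold for FOXF1, 2.93-fold for FOXC1, 2.73-fold for HAND2 and 2.25-fold for FOXC2. NKX2-5 was 10.5-fold lower in clone 1, where it rested on 3 reads, and 3.27-fold lower in clone 2. ISL1 could not be compared, as every library but that with R-spondin2 held at most 1 read of it.

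Lower levels in both clones were found for 7 of the 8 factors and for 35.5% of all genes. At least 2-fold lower in both clones, on the log2(FPKM + 1) scale, were HAND1, FOXF1, FOXC1, NKX2-5 and IRX3, which are 5 of the 8, and 1.08% of all genes. HAND2 missed this limit on that scale in clone 2, at -0.97, and FOXC2 missed it in both clones, at -0.89 in clone 1 and -0.60 in clone 2. The median over the 8 was -1.70 in clone 1 and -1.14 in clone 2, against 0.02 over all genes in each, with a central 95% of all genes from -0.94 to 0.82 in clone 1 and from -0.72 to 0.64 in clone 2. HAND1 had the second largest difference downward of the 12697 genes in clone 1 and the tenth in clone 2, and IRX3 the 17th and the 18th. FOXC2 was placed 346th and 431st. As the factors were chosen with earlier results of these data known, these shares and ranks are not independent evidence.

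The ratios of reads to the control are given with their intervals. For HAND1 the log2 ratio was -3.03 in clone 1, with an interval of -3.30 to -2.77, and -1.82 in clone 2, with -2.01 to -1.64. For IRX3 it was -2.67, with -2.99 to -2.36, and -1.72, with -1.96 to -1.48. For NKX2-5, at its shortest transcript, it was -3.46, with -5.81 to -1.79, and -1.70, with -2.89 to -0.65. For FOXC2, the weakest of the 7, it was -1.96, with -3.20 to -0.87, and -1.11, with -2.06 to -0.22. All 6 single-transcript factors that passed the filter had intervals below 0 in both clones, as did 12.4% of such genes.

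**Figure D2:**
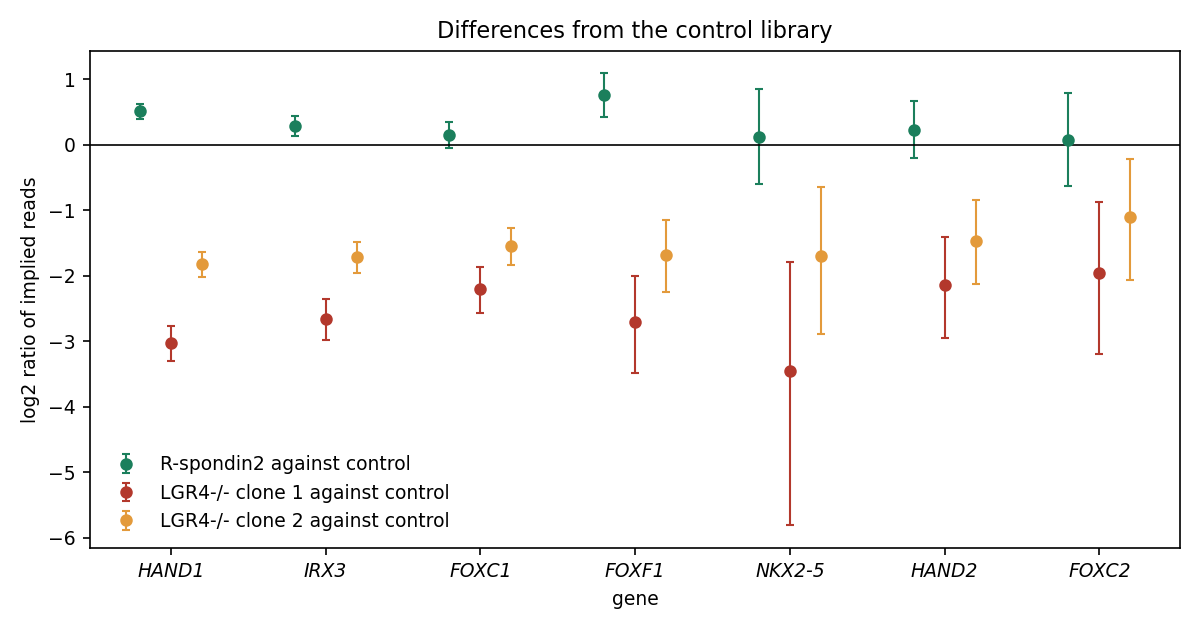
Log2 ratio of implied reads to the control library for 7 factors, with 95% counting intervals as bars and a line at no difference. R-spondin2 points lie between 0.08 and 0.75, and all points of both LGR4-/- clones lie below the line, from -3.46 to -1.11, while ISL1, with at most 7 reads, is left out.

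Across genes, limma was fitted to the control and both clones, with 1 residual degree of freedom and the lone control assumed to vary like the clones. The spread between the 2 clone libraries, which may be technical, was combined with a prior spread drawn from all genes tested. This prior had 2.90 degrees of freedom, more than the 1 of the clones, so p-values, SE and intervals rest largely on it. They hold no measure of spread between control cultures. By limma with Benjamini-Hochberg adjustment 0 of the 8 factors and 0% of the 12697 genes were called lower at an adjusted p under 0.05. No other tool was run. HAND2, FOXF1, FOXC2 and NKX2-5 averaged under 1 FPKM over the clones and passed the filter through the wild type libraries. Their being lower in the clones is thus not independent of that filter. The mean difference was -2.33 for HAND1 (SE 0.50, adjusted p = 0.167 by limma), with an interval of -3.74 to -0.93. It was -2.01 for IRX3 (SE 0.375, adjusted p = 0.161 by limma) and -1.60 for FOXC1 (SE 0.246, adjusted p = 0.161 by limma). NKX2-5 differed by -1.45, FOXF1 by -1.39, HAND2 by -1.15 and FOXC2 by -0.75, with limma adjusted p-values between 0.161 and 0.171. Over the other settings, the adjusted p of these 7 factors lay between 0.0615 and 0.390.

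**Figure D3:**
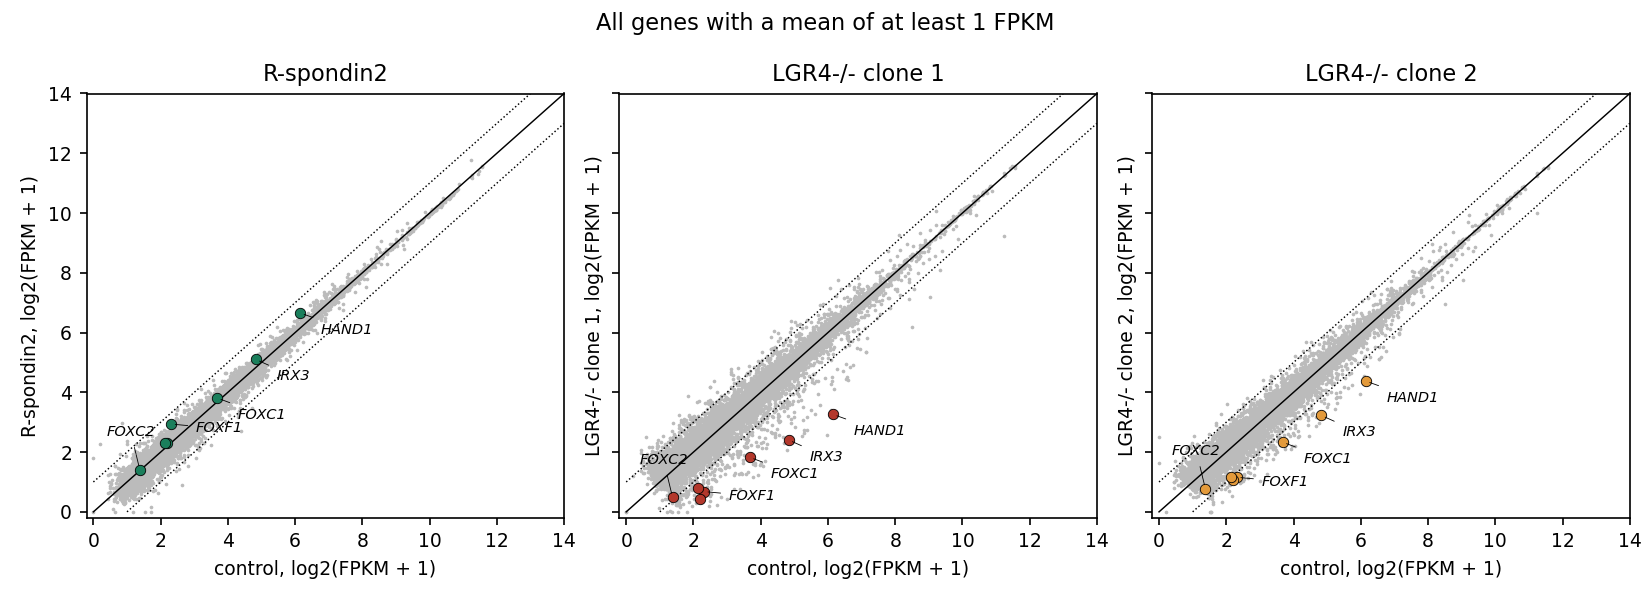
Levels of the 12697 genes that averaged at least 1 FPKM, as log2(FPKM + 1) in the control on the horizontal axis and in R-spondin2, clone 1 and clone 2 on the vertical axes, with 7 factors as colored points of which HAND2 and NKX2-5 are not named. The solid line marks equal levels and the dotted lines 2-fold on this scale, and the factors lie near the line with R-spondin2 and mostly under the lower dotted line in the clones.

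The clones also differed from each other, and every factor was higher in clone 2. The clone 2 library also held more LGR4 RNA, and a link between LGR4 RNA and the factors was not tested. HAND1 was 2.30-fold, FOXF1 2.05-fold, IRX3 1.94-fold, FOXC2 1.78-fold, HAND2 1.65-fold and FOXC1 1.59-fold higher in clone 2. All 8 were higher by some amount, against 49.2% of all genes. At least 2-fold higher on the log2(FPKM + 1) scale was 1 of the 8, HAND1 at 1.11, and 0.173% of all genes. The counting interval lay above 0 for HAND1, 0.91 to 1.51, for FOXF1, 0.19 to 1.89, for FOXC1, 0.26 to 1.07, and for IRX3, 0.59 to 1.31. These were 4 of the 6 single-transcript factors, where 13% of such genes had an interval above 0. For HAND2, -0.20 to 1.59, FOXC2, -0.42 to 2.21, and NKX2-5, -0.20 to 4.25, no difference between clones was detectable at this depth, and for ISL1 the difference was 1 read against 0.

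Ratios of 2 factors within a library do not depend on its depth. HAND1 exceeded HAND2 by 20.7-fold in the control (interval 16.6 to 26.1), 25.2-fold with R-spondin2 (20.5 to 31.3), 11.5-fold in clone 1 (6.89 to 19.2) and 15.9-fold in clone 2 (11.1 to 24.4). The interval of the control overlapped that of every other library. HAND1 exceeded FOXC1 by 5.94-fold in the control (5.29 to 6.68), 7.65-fold with R-spondin2 (6.87 to 8.53), 3.38-fold in clone 1 (2.55 to 4.47) and 4.90-fold in clone 2 (4.0 to 6.06). The share of HAND1 against FOXC1 was thus higher than the control with R-spondin2 and lower in clone 1, beyond counting error. FOXC1 exceeded FOXC2 by 7.37-fold in the control (5.27 to 10.8), and by 7.81-fold, 6.35-fold and 5.68-fold in the R-spondin2, clone 1 and clone 2 libraries, with intervals that all overlapped.

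The genes whose 3 differences from the control were most like those of each factor were taken from 9026 genes averaging at least 5 FPKM, by Euclidean distance over the 3 libraries. These libraries share the control. Differences were on the log2(FPKM + 1) scale, which shrinks those of low factors more than those of the genes they were compared with. HAND1 was nearest to MYL4, an atrial myosin light chain, at 0.231, then to LGR5, an R-spondin receptor, at 0.271, and NOG, a BMP antagonist, at 0.309. MYL4 stood at 26.27 FPKM in the control, 34.71 with R-spondin2, 3.22 in clone 1 and 6.79 in clone 2. IRX3 was nearest to BMPER, a modulator of BMP, at 0.0628, to APLNR, the apelin receptor of early mesoderm, at 0.102, and to MAMLD1 at 0.167. APLNR stood at 362.46, 443.61, 71.23 and 122.19 FPKM. FOXC1 was nearest to DLL3, a NOTCH ligand of the presomitic mesoderm, at 0.0410, then to FAM24B and PSKH2. HAND2 was nearest to EPHA4, MAN1A1 and TNC, and FOXF1 to CD48, POU2AF1 and LIFR. FOXC2 was nearest to CMTM7, CRABP2 and DUSP4, and NKX2-5 to NKD1, an antagonist of WNT signaling, PTPRM and PSKH2. For low factors, nearness on this scale is not a like fold. From control to clone 1, FOXC2 went from 1.60 to 0.40 FPKM and CRABP2 from 279.52 to 150.72.

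Genes around the factors were read from lists, with medians and fold limits on the log2(FPKM + 1) scale, and limma called none of their genes in either direction. Of 26 other lateral plate and cardiac transcription factors, 13 had a mean of at least 1 FPKM, and the medians of those were 0.16 with R-spondin2, -0.56 in clone 1 and -0.39 in clone 2. At least 2-fold lower in both clones were 4 of them, TBX3, GATA4, GATA6 and MEIS2. TBX3 stood at 13.12, 19.78, 2.07 and 4.01 FPKM in the control, R-spondin2, clone 1 and clone 2 libraries. GATA4, a zinc finger partner of NKX2-5 in the heart, stood at 40.52, 53.22, 8.05 and 15.05 FPKM. TBX5, a T-box factor of the first heart field, was at or below 0.06 FPKM in every library.

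The nascent mesoderm list had 9 genes, all above 1 FPKM in every library, and all 9 were higher with R-spondin2 and lower in both clones by some amount. Its medians were 0.41 with R-spondin2, -1.30 in clone 1 and -0.81 in clone 2. MESP1, a factor at the head of cardiac mesoderm, stood at 38.45, 57.26, 5.64 and 13.39 FPKM. With MESP2 it was 1 of the 2 genes of this list at least 2-fold lower in both clones on the log2(FPKM + 1) scale. MSGN1, at 6.64, 7.23, 1.41 and 2.86 FPKM, missed that limit in clone 2 at -0.98.

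Of 12 ligands and hedgehog targets that passed the filter, 4 were at least 2-fold lower in both clones, BMP2, BMP4, WNT5A and WNT8A, and the medians were 0.16 with R-spondin2, -0.65 in clone 1 and -0.27 in clone 2. NODAL, FGF4 and GLI1 were higher in both clones, by 0.11, 0.28 and 0.63 in clone 1 and by 0.56, 0.71 and 0.81 in clone 2. PTCH1, like GLI1 a hedgehog target, was lower in both, at -0.60 in clone 1 and -0.41 in clone 2. BMP4, which patterns lateral mesoderm, stood at 67.39 FPKM in the control, 98.26 with R-spondin2, 9.65 in clone 1 and 22.47 in clone 2. SHH and IHH were under 1 FPKM in every library. Among 7 receptors of lateral mesoderm, APLNR, ROR2 and NCAM1 were at least 2-fold lower in both clones, and the medians were 0.25, -1.28 and -0.996. KDR, the VEGF receptor of blood and vessel progenitors, stood at 34.4, 34.12, 26.8 and 32.87 FPKM.

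Not all relatives of the factors followed them. Of 17 paralogs and chromosomal neighbors found in the files, 5 passed the filter and 0 were at least 2-fold lower in both clones on the log2(FPKM + 1) scale. CRNDE came nearest, at -0.81 and -0.91. IRX2, of the same family as IRX3, stood at 14.06 FPKM in the control, 7.27 with R-spondin2, 26.89 in clone 1 and 21.09 in clone 2. On the log2(FPKM + 1) scale it differed by -0.86 with R-spondin2, 0.89 in clone 1 and 0.55 in clone 2, the opposite side from IRX3 in each. IRX1 was lower than the control in all 3 libraries, at 1.84, 0.87, 1.21 and 0.99 FPKM. FOXF2, the paralog of FOXF1, stayed at or under 0.32 FPKM. The 12 dimer partners and cofactors passed the filter, with medians of -0.09, 0.01 and 0.05, and 0 were 2-fold lower in both clones. ID1, an inhibitor of basic helix-loop-helix dimers and a BMP target, stood at 170.06, 108.2, 193.31 and 176.22 FPKM.

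Of the proteins made by cardiac muscle, 10 of 16 contractile and natriuretic genes passed the filter, with medians of 0.36, -0.94 and -0.54. MYL7, an atrial myosin light chain, stood at 37.48, 58.4, 7.34 and 13.18 FPKM, and NPPA, atrial natriuretic peptide, at 2.00, 4.80, 0.67 and 1.08. Lower in both clones by some amount were 8 of the 10. TNNI3, at 4.63, 3.53, 8.73 and 4.29 FPKM, and DES, at 4.33, 3.99, 3.74 and 4.44, were not lower in both. MYH6 and MYH7, the cardiac myosin heavy chains, were at or below 0.13 FPKM in every library. Of 11 paraxial and intermediate mesoderm genes found, 6 passed the filter, with medians of -0.09, -0.46 and -0.61. DLL1, DLL3 and HES7 were at least 2-fold lower in both clones, and the other 3, TCF15, FOXD3 and LFNG, were higher in both, by 0.83, 1.34 and 0.49 in clone 1 and by 0.39, 0.87 and 0.13 in clone 2. In the deposited annotation, 150 genes carried a heart or cardiac process term, and 108 that passed the filter were not among the 8 factors. Their medians were 0.03 with R-spondin2, -0.05 in clone 1 and -0.03 in clone 2, and 9 were at least 2-fold lower in both clones.

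**Figure D4:**
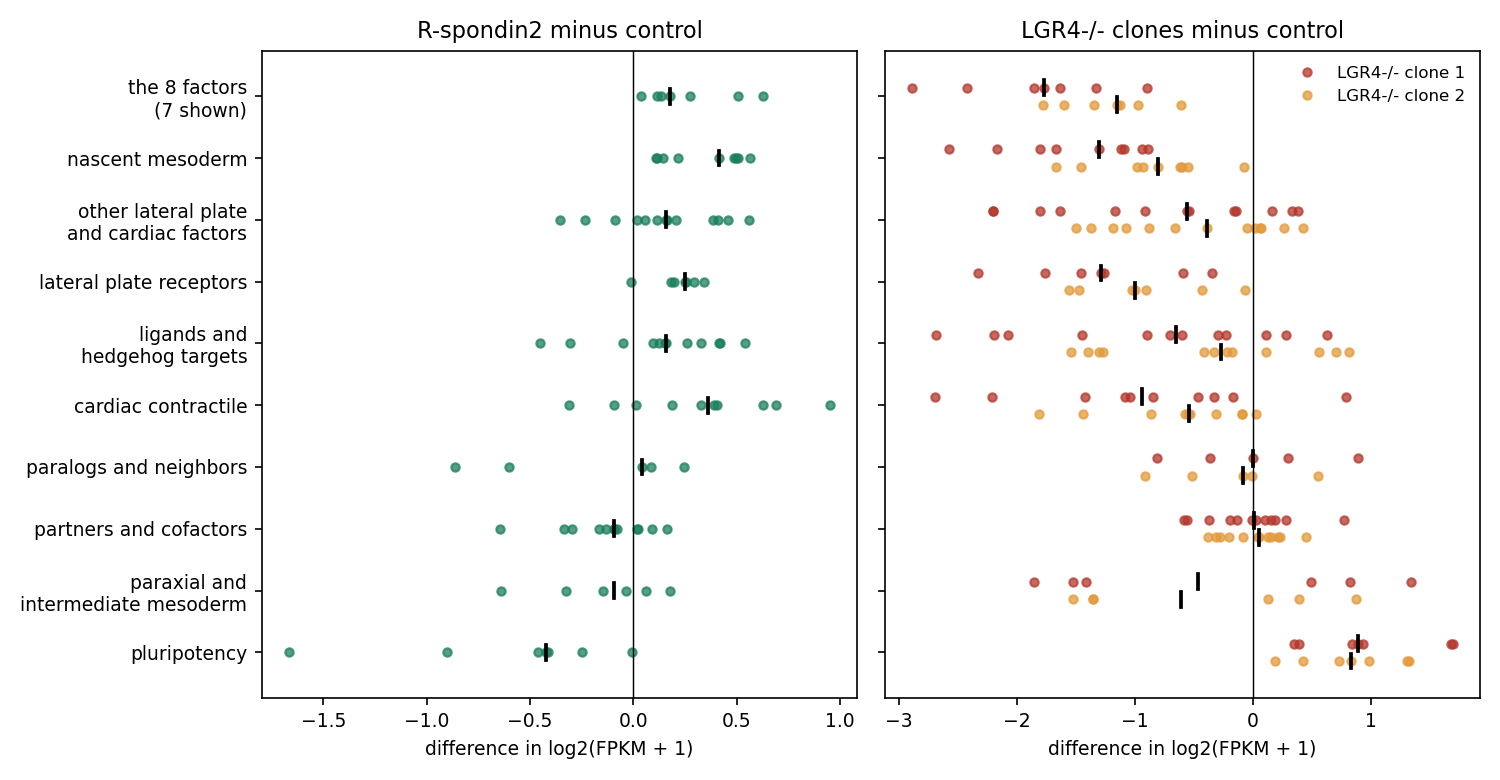
Difference in log2(FPKM + 1) from the control for 7 factors and for the genes of 9 lists that passed the filter, with R-spondin2 on the left and the 2 LGR4-/- clones on the right. Each point is a gene and each black bar the median of a list in a library, such as 0.41 for nascent mesoderm with R-spondin2 and 0.89 for pluripotency in clone 1.

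Markers of other cells also differed between these libraries. All 7 pluripotency genes were detected in every library, and their summed level was 1202.69 FPKM in the control, 935.77 with R-spondin2, 1991.83 in clone 1 and 1830.39 in clone 2. SOX2 stood at 19.89, 5.58, 65.99 and 50.67 FPKM, and with PRDM14 it was at least 2-fold higher in both clones. The endoderm list summed to 2600.64, 3723.58, 680.15 and 1143.58 FPKM, of which CER1 was the greater part, at 2395.47, 3467.35, 598.84 and 1033.6 FPKM. Of the other endoderm genes, SOX17 stood at 47.11, 49.89, 23.62 and 27.19 FPKM and FOXA2 at 9.05, 8.44, 11.88 and 11.64 FPKM, on opposite sides of the control in the clones. The stroma list, of which 9 genes were found, summed to 245.38, 308.76, 223.31 and 254.27 FPKM, most of it from COL1A1 and COL1A2. None was at 0, but DCN and POSTN were under 1 FPKM in every library. LUM, an extracellular matrix proteoglycan, was at least 2-fold lower in both clones, at 5.49, 9.11, 0.16 and 1.45 FPKM, and COL3A1 stood at 4.65, 9.86, 4.29 and 6 FPKM. Both were at least 1.5-fold higher with R-spondin2. Of the 7 stroma genes that passed the filter, 6 were higher with R-spondin2 by some amount. THY1 was lower with R-spondin2, at 43.99, 36.07, 54.28 and 64.51 FPKM. Blood and endothelial genes summed to between 13.29 and 14.43 FPKM, and their members differed in direction. RUNX1, a factor of blood formation, was at least 2-fold lower in both clones, at 3.96, 3.71, 0.61 and 1.29 FPKM, whereas TEK, an angiopoietin receptor, stood at 5.73, 4.88, 9 and 7.98 FPKM. Among 5 neuroectoderm genes 4 were under 1 FPKM in each library. The part of these cells in the levels of the 8 factors was not tested.

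The annotation of GENCODE release 29 on GRCh38, which is not the build of the authors' files, places FOXF1 at chromosome 16, bases 86510527 to 86515418, and FOXC2 on the same strand 51.4 kb away, at 86566829 to 86569728. HAND1 lies at chromosome 5, bases 154474972 to 154478264, HAND2 at chromosome 4, bases 173524969 to 173530229, and FOXC1 at chromosome 6, bases 1609972 to 1613897. IRX3 lies at chromosome 16, bases 54283304 to 54286763, NKX2-5 at chromosome 5, bases 173232109 to 173235357, and ISL1 at chromosome 5, bases 51383391 to 51394738. FOXC1 and FOXC2 each consist of 1 exon. The antisense gene HAND2-AS1 shares 867 exonic bases with HAND2, or 24.1% of its exons, FOXC2-AS1 shares 145 bases with FOXC2 and AC018553.2 shares 10 with IRX3. The counting is not stated to use strand, so that reads from the shared bases cannot be told apart from those of the antisense partners. MTHFSD, a neighbor of FOXC2 on chromosome 16, stood at 3.44, 3.71, 3.44 and 3.19 FPKM in the control, R-spondin2, clone 1 and clone 2 libraries.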

How the data were processed

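The authors deposited FPKM to 2 decimals for 17894 genes in each of 4 libraries, without read counts. The submitters' processing notes name BWA, Bowtie, RSEM and hg19, with no version. The files name genes by NCBI identifiers and RefSeq transcripts. Counting on strand and filters are not given in the sources used here.

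Levels were compared as log2(FPKM + 1) over the 12697 genes averaging at least 1 FPKM, a filter that 7 of the 8 factors passed. The LGR4-/- comparison used limma 3.58.1 in R 4.3.3 with Benjamini-Hochberg adjustment over all genes tested. Libraries standing alone were compared without a test. Low values of genes with 1 transcript, whose length came from GENCODE release 29, gave the depth. At the best estimates, 76.0% to 78.2% of 335 to 359 low values per library lay within 0.2 of a whole read. With lengths shuffled, 32.8% to 38.0% did at that same depth, which was not searched again. Ratios of implied reads carry 95% Clopper-Pearson intervals and single levels Poisson intervals, with Python 3.11.15 and scipy 1.17.1. The limma step and the depth estimate were tried on simulated libraries with less spread than these clones show, which does not test power here.

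The 8 factors, gene lists and tests were chosen with earlier results of these data known, and the motifs after the promoters had been seen. Named genes were all 8 factors, LGR4, the 3 genes nearest to each factor, and, at most 4 a list, genes at least 2-fold different in both clones or 1.5-fold with R-spondin2. Others named from the lists were chosen after their values were seen. Alternatives were a pseudocount of 0.1, no filter, a mean of at least 5 FPKM, rescaling by the median ratio, other folds, a variance trend, ratios of reads, and each clone left out.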

Additional observations from a re-analysis of the deposited data

How the results depend on the processing

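Among the 7 factors that passed the filter, the median LGR4-/- difference was -1.45, and it was -2.07 with a pseudocount of 0.1 and -2.01 with a mean of at least 5 FPKM, where only HAND1, FOXC1 and IRX3 remained. That filter also left 3 factors at least 2-fold lower in both clones, in place of 5, against 7 with the smaller pseudocount and 6 in clone 1 alone, and 0 at least 1.5-fold higher with R-spondin2, in place of 1, since FOXF1 was removed. A threshold of 2-fold gave 0 with R-spondin2 as well. Clone 2 was at least 2-fold above clone 1 for 1 factor, for 2 with a pseudocount of 0.1, and for 3 at a threshold of 1.5-fold. Of 110 values of single factors under the alternatives, 106 moved by less than the SD between clones or the counting error. Many of these could not have moved further. The 24 without a filter and the 9 with a mean of at least 5 FPKM equal the main values by construction. Leaving out either clone, with 7 values each, always shifts a mean of 2 by less than their SD. The other 4 of the 110, LGR4-/- ratios of reads that carry no pseudocount, moved further, all toward larger gaps. Without clone 1 the median was -1.15 and without clone 2 it was -1.77. No direction turned. Depth limits ISL1, and NKX2-5 in clone 1.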

Other observations

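The natriuretic peptide gene NPPB stood at 14.38 FPKM in the control, 23.82 with R-spondin2, 4.74 in clone 1 and 7.46 in clone 2. MYOCD, a coactivator of smooth and cardiac muscle genes, was low, at 1.14, 2.05, 0.16 and 0.41 FPKM in the same order. FOXD3, a forkhead factor that is also expressed in pluripotent cells, lay on the other side of the control from the forkhead genes FOXF1, FOXC1 and FOXC2, at 1.99, 0.92, 6.56 and 4.47 FPKM. CRNDE, a long noncoding RNA gene beside the Iroquois genes IRX3 and IRX5, stood at 5.05, 6.16, 2.45 and 2.21 FPKM, and IRX5 itself at 1.24, 1.41, 0.68 and 0.46 FPKM. These values were chosen after they had been seen, and none has a replicate check beyond the 2 clones.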
